A study of Mus musculus with 5 samples.

Results

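Txnip, Ddit4l and 8 further genes linked to the FOXO transcription factors were followed across 5 microarrays of mouse sarcoma cells in which doxycycline controls the fusion protein EWS/ATF1. The 10 genes are Txnip, Arrdc3, Arrdc4, Ddit4, Ddit4l, Irs2, Pik3ip1, Foxo1, Foxo3 and Sesn3, out of 20018 genes that the array probes named. They were taken by symbol, through the RefSeq transcript each probe is annotated with. The members were chosen by their levels and differences between these same arrays, which were already known. All values of the 10 genes are therefore given as a description, with no test. All 10 were found, on 13 probes, and all 13 probes were marked well above background on all 5 arrays. Txnip, Arrdc4 and Foxo1 have 2 probes each, and the brightest probe stands for the gene.

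The cells were grown out of soft tissue sarcomas that arose in mice with doxycycline-inducible EWS/ATF1 alleles, with a genetic background mixed from the C57/BL6, 129 and ICR strains. All 5 groups carry these alleles. The groups are a 3 h control, 3 h of low doxycycline, 3 h of high doxycycline, a 48 h control and 48 h of high doxycycline, with 1 array each. Not given in the sources used here are the doses, the promoter that drives the fusion, whether the controls received any doxycycline, and the tumour line behind each array. Effects of the line and of the dose therefore cannot be told apart. EWS/ATF1 joins part of EWS to ATF1, a factor that binds cyclic AMP response elements, and is known as the driver of clear cell sarcoma.

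FOXO factors are transcription factors held out of the nucleus when AKT phosphorylates them, which happens when growth factor receptors activate PI3K. When this signal is low they enter the nucleus and switch on genes that restrain growth and glucose use, many of which feed back on PI3K, AKT and mTORC1. Txnip and its relatives, the alpha-arrestins, are also known targets of MondoA and ChREBP, factors that sense glucose phosphates and act through E-box-like motifs.

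Promoter letters are shown for Txnip and Ddit4l, whose levels differed most, and for the other members with an E-box, Arrdc4 and Irs2. Each is the 250 bases before the gene's start, 5′ to 3′ on the gene's strand, from RefSeq on build GRCm38.p6. Capitals mark the FOXO motif GTAAACA, the E-box CACGTG or the E-box-like CACGAG.
Txnip, chr3:96557707-96557956, plus strand: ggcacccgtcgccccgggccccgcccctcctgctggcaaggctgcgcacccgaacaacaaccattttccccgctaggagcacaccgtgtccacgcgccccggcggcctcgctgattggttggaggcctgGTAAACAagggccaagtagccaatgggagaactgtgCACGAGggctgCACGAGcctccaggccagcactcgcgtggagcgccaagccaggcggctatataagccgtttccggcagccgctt
Ddit4l, chr3:137623422-137623671, plus strand: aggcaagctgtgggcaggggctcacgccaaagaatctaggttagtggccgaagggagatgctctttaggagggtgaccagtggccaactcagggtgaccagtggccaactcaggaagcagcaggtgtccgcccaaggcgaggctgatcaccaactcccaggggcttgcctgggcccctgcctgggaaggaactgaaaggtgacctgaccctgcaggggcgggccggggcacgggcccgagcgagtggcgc
Arrdc4, chr7:68749239-68749488, minus strand: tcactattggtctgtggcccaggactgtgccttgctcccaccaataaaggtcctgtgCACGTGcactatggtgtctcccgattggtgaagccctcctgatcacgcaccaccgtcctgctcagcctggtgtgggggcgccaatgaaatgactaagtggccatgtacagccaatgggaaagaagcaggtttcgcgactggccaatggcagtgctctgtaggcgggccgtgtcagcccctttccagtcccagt
Irs2, chr8:11008930-11009179, minus strand: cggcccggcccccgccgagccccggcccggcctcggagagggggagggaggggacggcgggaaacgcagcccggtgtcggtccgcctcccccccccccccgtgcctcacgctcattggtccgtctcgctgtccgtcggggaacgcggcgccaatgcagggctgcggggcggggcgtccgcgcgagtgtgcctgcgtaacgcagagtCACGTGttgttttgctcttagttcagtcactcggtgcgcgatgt

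The motifs were searched on both strands of 12 promoters of the 10 members, since Arrdc3 has 3 listed starts, and of all 32851 promoters in the same table. GTAAACA lay in 3.17% of all promoters and, among the members, in that of Txnip, 121 to 115 bases before the start. CACGTG lay in 6.02% of all promoters and in those of Arrdc4 (193 to 188 bases before the start) and Irs2 (44 to 39 bases). The full cyclic AMP response element, TGACGTCA, lay in 1.55% of all promoters and in none of the 12. Its short form TGACG, which the full element also contains, lay in 17.8% of all promoters, in that of Foxo3 and in 1 of the 3 promoters of Arrdc3. CACGAG, added after these promoters had been seen, lay in 5.37% of all promoters. Txnip was the only member with it. It has 2 copies in the same direction with 5 bases between them, at 85 to 80 and 74 to 69 bases before the start. This arrangement was also defined after the promoters had been seen. Txnip itself is the 1 of the 32851 promoters that holds it, so nothing is read from that count. A match is a description of the letters, not a shown binding site, and the promoter of Ddit4l held no match to any of them.

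Levels are log2 of the scanner's background-subtracted signal minus the 75th percentile of the array, so a difference of 1 is 2-fold. Errors after ± are the scanner software's own error for the spots on both arrays, and cover the reading of a spot, not the spread between cultures. With 1 array per group no difference has a replicate check. A gene was counted as higher or lower where it differed by at least 2-fold and was well above background on both arrays. The share of probes above background ran from 55.5% to 60.0% over the arrays, and the 75th percentile signal from 420 to 725, lowest on the 48 h high dose array.

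Markers of cell state and of other cell types differed between arrays, most at 48 h of high dose but also at 3 h. Fos, which the study's title names as activated by the fusion, was at -2.22 on the 3 h control, -0.50 at low dose, 2.18 at high dose, -2.22 on the 48 h control and 2.86 on the 48 h high dose array. The mouse Ewsr1 and Atf1 probes differed by less than 2-fold in each comparison. Markers of proliferating cells, summed over 10 genes on the linear scale, had a log2 level of 0.79 to 1.15 on the first 4 arrays and 6.69 on the 48 h high dose array. All 10 macrophage markers were above background there, with a summed level of 5.52 against 2.87 to 3.17 elsewhere. Tyrobp, Lyz2, C1qa and C1qc were not well above background on the 3 h high dose and 48 h control arrays, while at the 3 h control and low dose C1qa alone was not. Csf1r made up most of the sum on every array. The sums hide lower levels of other markers at 3 h of high dose and on the 48 h control. At 3 h of high dose Ctss was 16.1-fold and Cd74 2.69-fold lower than control. Tyrobp was at least 6.74-fold lower, by the bound defined below. Against the 3 h control, the 48 h control was 14.8-fold lower for Ctss, 2.08-fold for Cd74 and at least 6.51-fold for Tyrobp. The 7 mesenchymal markers were all above background on every array, with a summed level of 5.73 at 48 h of high dose and 6.64 to 6.81 elsewhere. Most of this sum was Vim, at 5.70 on the 48 h high dose array and -0.83 from its control. The other 6 were all at least 2-fold lower there, from -1.11 for Col1a2 to -5.58 for Postn, and the median of the 7 was -2.50. At 3 h of high dose Dcn was 2.29-fold and Col3a1 2.08-fold lower than control. The epithelial marker Epcam was at least 7.26-fold higher, by the same bound as Tyrobp. Dct and Tyrp1 of the melanocyte markers, Cdh5 and Emcn of the endothelial, Krt8 and Cdh1 of the epithelial, and Myod1, Myog, Des, Ckm and Myh3 of the muscle markers were not well above background on any array. The 5 adipocyte markers had a summed level of -1.19 at 48 h of high dose and -0.02 to 1.06 elsewhere. The part of these shifts in the results was not tested. In RNA from a whole culture, fewer cells that express a gene and less RNA per cell cannot be told apart.

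**Figure D1:**
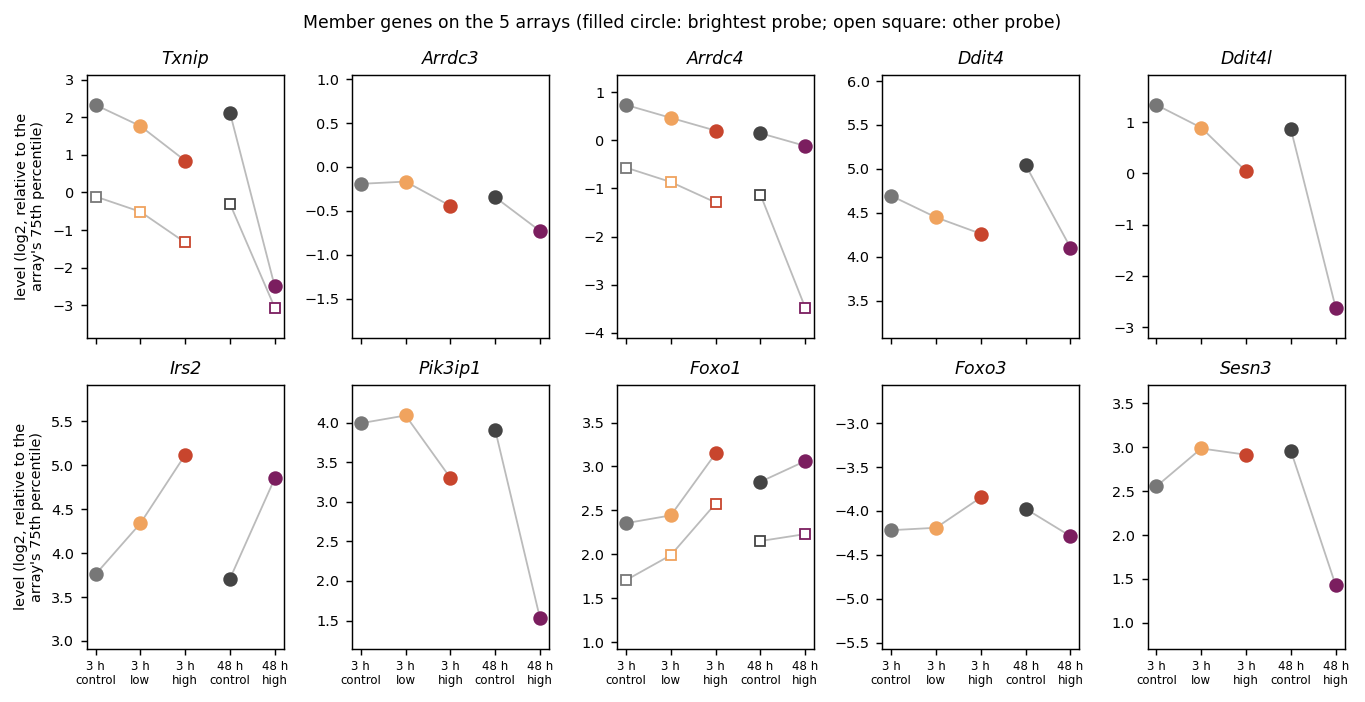
Level of each member (y axis, log2 relative to the array's 75th percentile) on the 5 arrays (x axis), with filled circles for the brightest probe, open squares for the other probe, and lines joining arrays of 1 time point; each point is 1 array. On their brightest probes, all members but Irs2 and Foxo1 were lowest at 48 h of high dose, by most for Txnip, Ddit4l, Pik3ip1 and Sesn3. Irs2 was highest on the 2 high dose arrays, and the 2 probes of Arrdc4 part at 48 h.

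Among the alpha-arrestins, Txnip showed the largest difference of all 10 members. Txnip binds thioredoxin and lowers glucose uptake by drawing glucose transporters from the cell surface. The gene lies at chr3:96557957-96561857 on GRCm38.p6. Its level was 2.33 on the 3 h control, 1.77 at low dose, 0.85 at high dose, 2.12 on the 48 h control and -2.50 at 48 h of high dose. The 2 controls were highest and differed by less than 2 scanner errors, and the 48 h high dose array lay far below the other 4. Txnip was 2.79-fold lower at high dose than control at 3 h, a log2 difference of -1.48 ± 0.20. At 48 h it was 24.6-fold lower, or -4.62 ± 0.21. Of 13739 genes measured in that comparison, 19 had a lower difference. The second Txnip probe had the same order of arrays, with levels of -0.11, -0.51, -1.33, -0.30 and -3.06. Its differences were smaller, at -1.22 ± 0.21 at 3 h and -2.76 ± 0.22 at 48 h, so the size of the 48 h difference, 6.78-fold against 24.6-fold, depended on the probe.

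Arrdc3 and Arrdc4 are relatives of Txnip that serve as adaptors for ubiquitin ligases of the Nedd4 family. Arrdc3 stayed within a narrow range, with -0.19 on the 3 h control, -0.17 at low dose, -0.44 at high dose, -0.34 on the 48 h control and -0.73 at 48 h of high dose. No neighbours in that order differed beyond 2 scanner errors. Arrdc4, on its brightest probe, was at 0.74, 0.47, 0.20, 0.15 and -0.11 in the same order of arrays, again with no step beyond 2 errors. Wider differences did pass 2 errors, at -0.53 ± 0.20 for high dose minus control at 3 h. The 48 h control was -0.59 ± 0.20 from the 3 h control, and 0.05 ± 0.20 below the 3 h high dose array. The second Arrdc4 probe, printed on 10 spots of each array and annotated with another transcript of the gene, was at -0.57, -0.87, -1.29, -1.13 and -3.48. The 2 probes therefore parted at 48 h, where high dose minus control was -0.26 ± 0.20 on the brightest probe and -2.35 ± 0.079 on the other. At 3 h they differed less, at -0.53 ± 0.20 and -0.73 ± 0.065. Arrdc4 is counted below by its brightest probe, and its 48 h value is uncertain for that reason.

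Ddit4 and Ddit4l, also known as REDD1 and REDD2, inhibit mTORC1 through the TSC complex. Ddit4l, at chr3:137623672-137628332, was at 1.34 on the 3 h control, 0.89 at low dose, 0.04 at high dose, 0.87 on the 48 h control and -2.62 at 48 h of high dose. As for Txnip, the 3 h levels were lower with each dose and the 48 h high dose array was far below the rest. High dose minus control was -1.30 ± 0.20 at 3 h, or 2.46-fold lower, and -3.49 ± 0.21 at 48 h, or 11.2-fold lower. The 2 controls differed by -0.47 ± 0.20, 48 h minus 3 h. Set against the 48 h control instead, the 3 h high dose array was -0.82 ± 0.20 for Ddit4l, under 2-fold.

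Ddit4 itself, which many stresses induce, was at 4.69, 4.45, 4.26, 5.04 and 4.10 from the 3 h control to the 48 h high dose array. The 48 h control was highest and both high dose arrays were lowest. With the arrays ranked by level, no step between neighbouring ranks passed 2 scanner errors, though both differences from control did. High dose minus control was -0.43 ± 0.20 at 3 h and -0.94 ± 0.20 at 48 h. The latter, 1.92-fold lower, lay just outside the 2-fold limit.

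Sesn3, a sestrin that restrains mTORC1 and is a reported FOXO target, had differences of opposite sign at 3 h and 48 h, a contrast that was not tested. It was at 2.55 on the 3 h control, 2.99 at low dose, 2.91 at high dose, 2.96 on the 48 h control and 1.43 at 48 h of high dose. The first 4 arrays lay together and the last stood below them. High dose minus control was 0.36 ± 0.20 at 3 h and -1.53 ± 0.20 at 48 h, or 2.89-fold lower.

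Pik3ip1 and Irs2 sit at opposite ends of PI3K control. Pik3ip1, a membrane protein that inhibits PI3K, was at 3.99 on the 3 h control, 4.09 at low dose, 3.30 at high dose, 3.91 on the 48 h control and 1.53 at 48 h of high dose. The controls and the low dose array lay within 0.18 of one another, and both high dose arrays were below them by more than 2 errors. The difference was -0.69 ± 0.20 at 3 h and -2.38 ± 0.20 at 48 h, or 5.20-fold lower.

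Irs2, the adaptor that couples insulin and IGF receptors to PI3K, was the member that was higher at high dose at both times by at least 2-fold. Its levels were 3.76 on the 3 h control, 4.34 at low dose, 5.12 at high dose, 3.71 on the 48 h control and 4.85 at 48 h of high dose. The 2 controls differed by 0.05, the low dose array lay between them and the high dose arrays, and each of those steps passed 2 errors. High dose minus control was 1.36 ± 0.20 at 3 h, or 2.57-fold higher, and 1.14 ± 0.20 at 48 h, or 2.21-fold higher. In contrast with Txnip and Ddit4l, the 48 h difference of Irs2 was not the larger of the pair.

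Foxo1 and Foxo3 encode 2 of the FOXO factors. Foxo1 was at 2.35 on the 3 h control, 2.44 at low dose, 3.15 at high dose, 2.83 on the 48 h control and 3.06 at 48 h of high dose. Its second probe gave 1.71, 1.99, 2.58, 2.15 and 2.23, so that both probes were highest at 3 h of high dose. High dose minus control was 0.79 ± 0.20 at 3 h and 0.24 ± 0.20 at 48 h, with 0.87 ± 0.20 and 0.079 ± 0.20 on the second probe. Foxo3 was read near the dim limit, where the lowest level of a probe above background ran from -6.44 to -5.18 over the arrays. It was at -4.22, -4.19, -3.85, -3.98 and -4.29. With the arrays ranked by level, steps between neighbouring ranks stayed within 2 scanner errors for Foxo3 and for Foxo1 on its brightest probe. The 3 h difference of Foxo1 between high dose and control, at 0.79 ± 0.20, was beyond 2 errors. Against the 48 h control the same array was at 0.32 ± 0.20, within 2 errors. On the second probe it was at 0.427 ± 0.204, just beyond them.

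**Figure D2:**
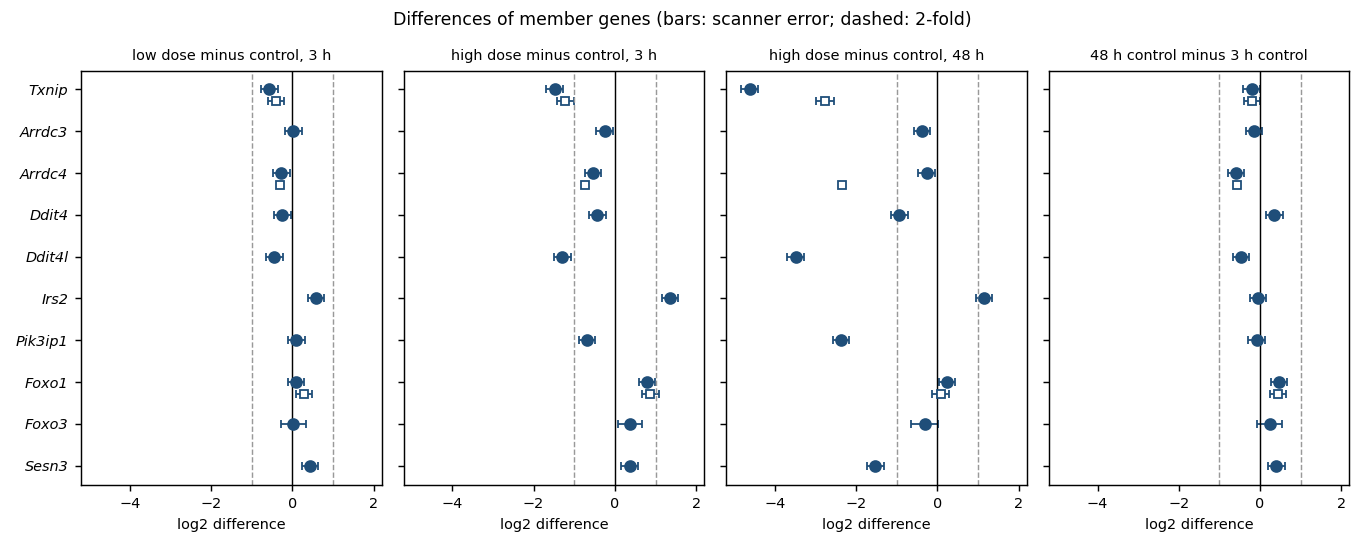
Log2 difference (x axis) of each member (y axis) in 4 comparisons, with filled circles for the brightest probe, open squares for the other probe, horizontal bars for the scanner error and dashed lines at 2-fold. In the 2 comparisons of high dose with control, Txnip and Ddit4l lie left of the dashed line and Irs2 right of it, and in the comparison of the controls no member passes a dashed line.

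At 3 h of high dose, 1 member of 10 was higher than control by at least 2-fold, Irs2, and 2 were lower, Txnip and Ddit4l. Of all 14004 genes measured, 1.86% were higher and 1.44% lower. The median difference was -0.34 over the members and -0.01 over all genes. Nothing is read from these counts, as this comparison helped to choose the members. The balance of all genes depended on the centring, with 56.4% of the counted genes higher under the 75th percentile and 40.7% under the array median, which moved every difference by -0.12 and left the 3 member calls in place.

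At 3 h of low dose no member differed by 2-fold from the same control array, and over all genes 0.761% were higher and 0.583% lower. The largest member differences were 0.58 ± 0.20 for Irs2, -0.56 ± 0.20 for Txnip and -0.44 ± 0.20 for Ddit4l. High against low dose at 3 h also gave no member at 2-fold, beside 1.28% of genes higher and 0.885% lower. There Txnip was at -0.92 ± 0.20, Ddit4l at -0.85 ± 0.20, Pik3ip1 at -0.79 ± 0.20, Irs2 at 0.78 ± 0.20 and Foxo1 at 0.70 ± 0.20. Pik3ip1 and Foxo1 had low dose values of 0.10 ± 0.20 and 0.09 ± 0.20 against control, on their brightest probes, so that most of their 3 h difference lay between the low and the high dose. The second Foxo1 probe was already at 0.28 ± 0.20 at low dose, of 0.87 at high dose. Over the 3 h control, low and high dose arrays in that order, 4 members were lower at each step (Txnip, Ddit4l, Ddit4 and Arrdc4) and 3 higher at each step (Irs2, Foxo1 and Foxo3). On the brightest probes, only Txnip, Ddit4l and Irs2 had both steps beyond 2 scanner errors. The second Arrdc4 probe also passed 2 errors at both steps, while the second Txnip probe did not at low dose (-0.404 ± 0.205). The low dose step rests on the 3 h control array. Against the 48 h control, low dose was at -0.36 ± 0.20 for Txnip and 0.03 ± 0.20 for Ddit4l, both within 2 errors. For Irs2 it was at 0.63 ± 0.20, beyond 2 errors. Among 13972 genes above background on all 3 arrays, 24.5% were lower and 20.9% higher at each step. These comparisons share the 3 h control array or the low dose array.

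At 48 h of high dose, 4 members were lower than the 48 h control, Txnip, Ddit4l, Pik3ip1 and Sesn3, and 1 was higher, Irs2. In this comparison 10.1% of 13739 genes were lower and 9.91% higher. The median was -0.66 over the members and 0.05 over all genes. The same 5 genes were counted, in the same directions, with the 3 h control in place of the 48 h control, where Txnip was -4.83 ± 0.21, Ddit4l -3.96 ± 0.21, Pik3ip1 -2.46 ± 0.20, Sesn3 -1.13 ± 0.20 and Irs2 1.09 ± 0.20. Against that array 8.88% of 13553 genes were lower and 9.41% higher. With the signals of the 5 arrays quantile-normalised, Irs2 came to 0.93 and was no longer counted. Between the 2 controls no member differed by 2-fold, beside 2.5% of 14017 genes higher and 1.36% lower at 48 h than at 3 h. The largest member difference there was -0.59 ± 0.20 for Arrdc4. Of the genes counted between the controls, 64.8% were higher at 48 h, and 49.3% with array medians.

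**Figure D3:**
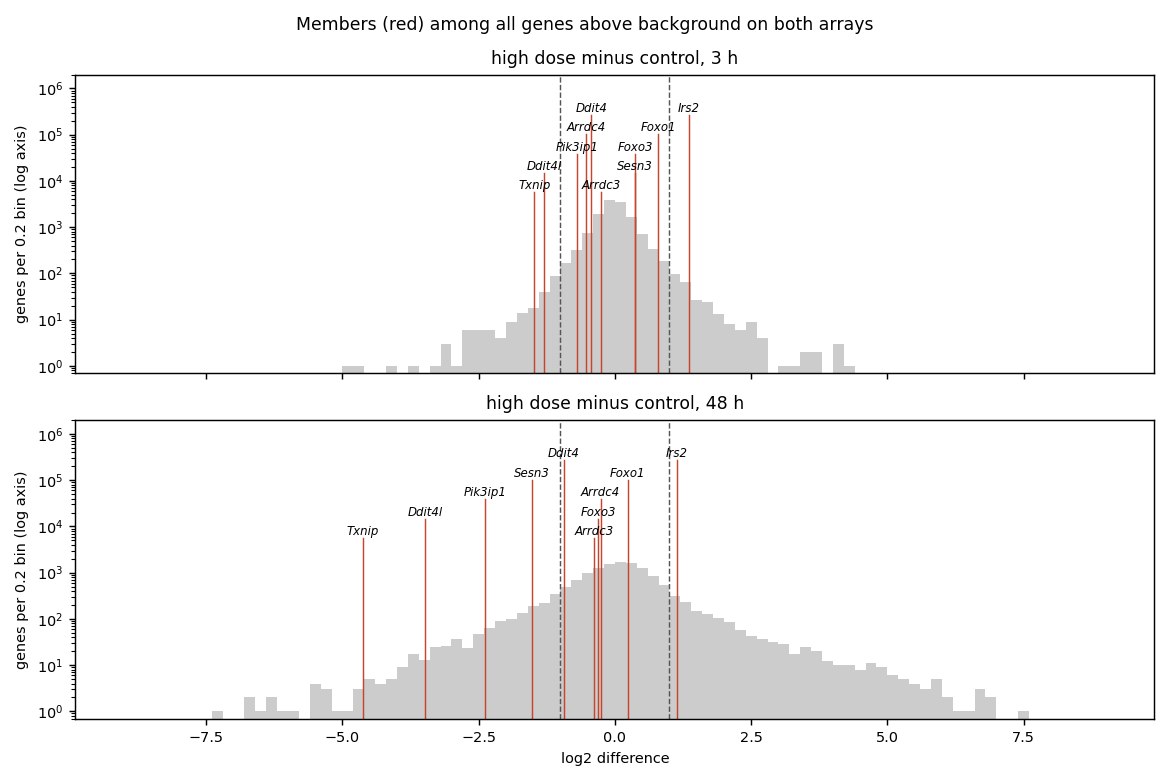
Number of genes (y axis, log scale) by log2 difference (x axis, bins of 0.2) for high dose minus control at 3 h and at 48 h, over genes above background on both arrays, with red lines at the 10 members and dashed lines at 2-fold. The distribution is wider at 48 h, where Txnip, with 19 genes below it, and Ddit4l, with 68 below it, lie in the lower tail.

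The members are part of longer pathways, which were followed through 4 lists of genes that do not include them. The lists were chosen with earlier results of these data known, so their counts are a description and were not tested. Of 30 FOXO factors and reported FOXO targets, 23 were above background on both 48 h arrays. At 48 h of high dose 10 of the 23 were lower than control by at least 2-fold and 1 was higher, beside 10.1% and 9.91% of all genes, and the median was -0.89 beside 0.05 over all genes. The lowest 3 were Bcl6, a transcriptional repressor, at -2.62 ± 0.20, Cited2, a co-regulator that binds CBP and p300, at -2.13 ± 0.20, and Klf2, a transcription factor of quiescent cells, at -2.04 ± 0.30. The other 7 were Btg1, Fbxo32, Foxo6, Tsc22d3, Insr, Ccng2 and Ypel3, between -1.96 and -1.04. Bcl2l11, which encodes the death-promoting protein BIM, was the 1 higher, at 1.18 ± 0.21. Pdk4, which keeps pyruvate from the mitochondrial oxidation route and is named here after its values were seen, had levels of -1.25, -0.34, -0.68 and -0.32 on the first 4 arrays. At 48 h of high dose it was not well above background, so it was at least 31.1-fold lower than the 48 h control. S1pr1, a lipid receptor also named after its values were seen, was at least 2.77-fold lower in the same way. These bounds set the bright array against the higher of the dim probe's own level and the lowest level of any probe above background on the dim array. That lowest level is not a detection limit, since Foxo4 at -4.95 was also not well above background at 48 h of high dose. The words "at least" therefore hold by this rule only. With the 3 h control in place of the 48 h control, 8 of 23 were lower and 0 higher, beside 8.88% and 9.41% of all genes.

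At 3 h of high dose fewer genes were counted, both in the same list and over all genes. Of 25 genes measured, 1 was higher, Foxo6 at 1.32 ± 0.20, and 1 lower, the death gene Bbc3 at -1.05 ± 0.20. Over all genes 1.86% were higher and 1.44% lower. The list median was 0.14 beside -0.01 over all genes. Foxo6, a further FOXO factor, was at 0.79 on the 3 h control, 1.77 at low dose, 2.11 at high dose, 1.80 on the 48 h control and 0.42 at 48 h of high dose. Its 3 h control array was thus below the 48 h control by 1.01 ± 0.20, and against that control the 3 h high dose array differed by 0.31. At low dose none of 25 was counted in either direction, beside 0.761% of all genes higher and 0.583% lower.

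Of 20 genes of PI3K and AKT signalling, 19 were measured at 48 h, with 4 lower, 1 higher and a median of -0.31, beside 10.1% of all genes lower and 9.91% higher. Irs1, the adaptor related to Irs2, was lower by -2.33 ± 0.21, from 0.82 on the 48 h control to -1.52 at high dose. Irs2 and Irs1 thus differed from control in opposite directions. Pik3r3, a regulatory subunit of PI3K, was at -1.29 ± 0.20, and Inpp4b, a lipid phosphatase that opposes PI3K, was at -1.28 ± 0.22. Pik3cd, a catalytic subunit, was higher at 1.10 ± 0.20, a call lost with normexp background correction and with the mean of all probes. Akt1 and Akt2 were at 0.58 and -0.03. At 3 h none of 19 was counted at either dose. Over all genes 1.86% were higher and 1.44% lower at high dose, and 0.761% and 0.583% at low dose.

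Of 20 genes of mTORC1 and its inhibitors, all 20 were measured at 48 h, with 3 lower, 0 higher and a median of -0.23, beside the same 10.1% and 9.91% of all genes. The 3 were Deptor, an inhibitor of mTOR, at -2.58 ± 0.21, Sesn1, a sestrin like Sesn3, at -1.54 ± 0.20, and Rragd, a GTPase that recruits mTORC1 to the lysosome, at -1.06 ± 0.25. Sesn2, the remaining sestrin, was at -0.75, and the kinase Mtor was at -0.26. Other inhibitors on the list were within 2-fold of control, with Tsc2 at -0.60, Tsc1 at -0.57, Akt1s1 at -0.36, Nprl2 at 0.03, Nprl3 at 0.25 and Depdc5 at 0.29. At 3 h none of 20 was counted at either dose, beside 1.86% and 1.44% of all genes at high dose and 0.761% and 0.583% at low.

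Of 20 further alpha-arrestins and genes of the thioredoxin and glucose-sensing systems, 19 were measured at 48 h, with 1 lower, 0 higher and a median of -0.25, again beside 10.1% and 9.91% of all genes. The 1 was Arrdc2, a relative of Txnip, at -1.01 ± 0.20, and Arrdc1 was at -0.25. With the mean of all probes 0 of the 19 were lower. Thioredoxin itself, Txn1, which the Txnip protein binds, was at 0.36. Mlxip, which encodes MondoA, was at -0.49, Mlxipl, which encodes ChREBP, at 0.77, and their partner Mlx at 0.49. The glucose transporter gene Slc2a1 was at -0.54. At 3 h none of 18 was counted at either dose, beside 1.86% and 1.44% of all genes at high dose and 0.761% and 0.583% at low.

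**Figure D4:**
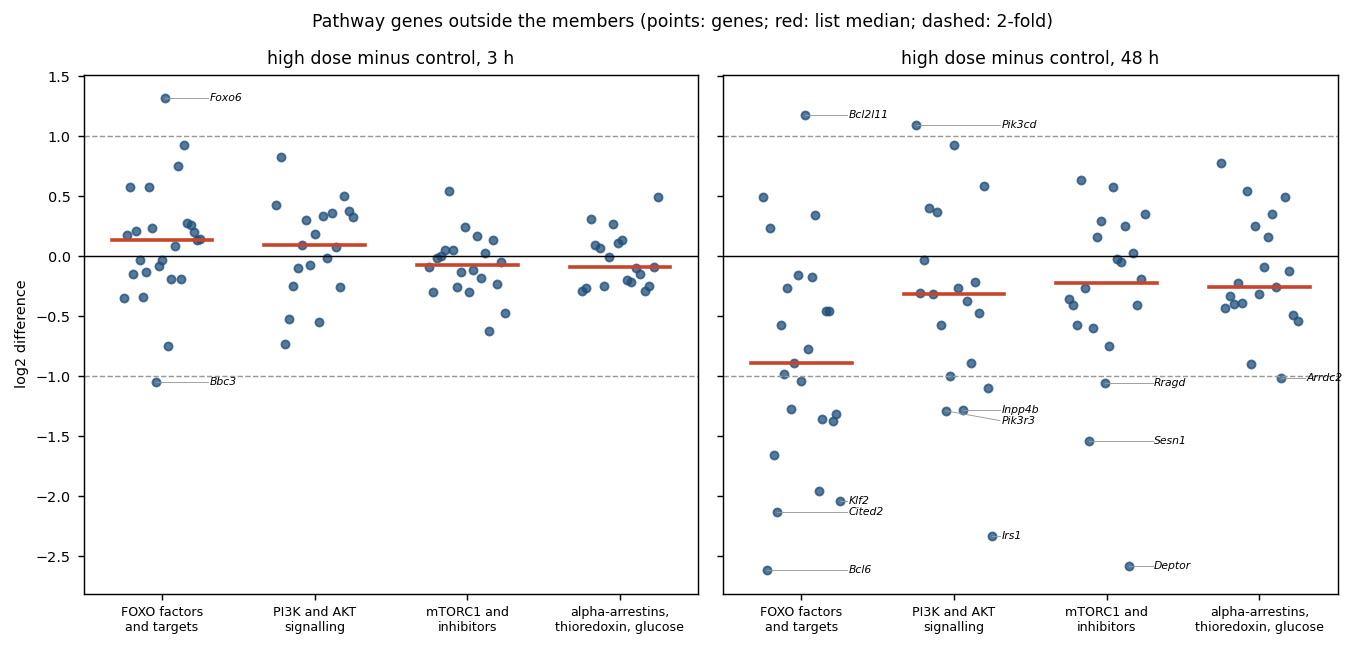
Log2 difference (y axis) of high dose minus control at 3 h and 48 h for the genes of 4 pathway lists (x axis), without the 10 members, where each point is a gene above background on both arrays, red bars are list medians, dashed lines mark 2-fold and names mark up to 3 counted genes per list and direction. At 48 h the FOXO list has its median at -0.89 with 10 genes below the lower dashed line, and the medians of the other lists lie between -0.31 and -0.23.

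To see which genes shared the pattern of Txnip and Ddit4l, each gene's 5 levels were centred on their mean and the root mean square distance was taken, over 13469 genes above background on all 5 arrays. The distance describes likeness on these 5 arrays, with nothing said of shared function or control. The nearest genes outside the members to Txnip were Ogn (0.32), Ablim1 (0.34), Grem1 (0.36), Ccn5 (0.37) and Sybu (0.37). Ogn is a small proteoglycan of the matrix, Grem1 a secreted inhibitor of BMP and Ccn5 a secreted matricellular protein. Nearest to Ddit4l was Ccn5 at a distance of 0.040, with levels of 2.17, 1.74, 0.89, 1.81 and -1.74 from the 3 h control to the 48 h high dose array, followed by Sfrp1 (0.18), Rgs3 (0.20), Gucy1b1 (0.22) and Tinagl1 (0.23). Of these, Sfrp1 encodes a secreted Wnt inhibitor and Gucy1b1 a subunit of the nitric oxide receptor.

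Among all 13469 genes, Ddit4l held place 6 from Txnip, at 0.38, while Txnip held place 28 from Ddit4l. Pik3ip1 held place 129 from Txnip and 77 from Ddit4l, and Sesn3 held 712 and 700. The other members were further off on their brightest probes, with Irs2 at place 12368 from Txnip. The second Arrdc4 probe, also far lowest at 48 h of high dose (-3.48), was given no place. The likeness of Arrdc4 to Txnip and Ddit4l is therefore left uncertain. By their brightest probes the members did not form 1 pattern on these arrays. At the 2-fold limit, Txnip and Ddit4l were lower at high dose at both times, Pik3ip1 and Sesn3 at 48 h, Irs2 was higher at both, and Arrdc3, Ddit4, Foxo1 and Foxo3 stayed within 2-fold of control throughout, as did Arrdc4 on its brightest probe, except that Ddit4 passed 2-fold at 48 h with quantile normalisation.

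**Figure D5:**
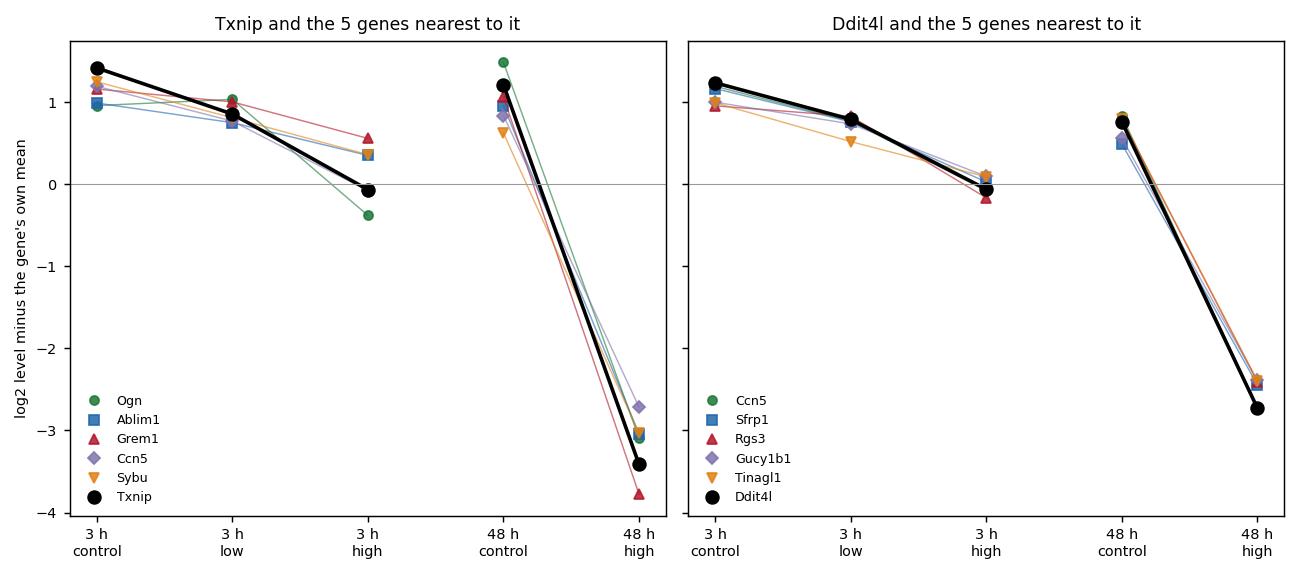
Log2 level minus the gene's own mean (y axis) on the 5 arrays (x axis) for Txnip and for Ddit4l in black, each with the 5 genes nearest to it in colour; each point is 1 array. Ccn5 follows Ddit4l at a distance of 0.040, and in both panels the 48 h high dose array is lowest for every gene shown.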

How the data were processed

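Total RNA of 5 cultures was labelled with Cy3 and hybridised to 5 one-colour arrays on 1 slide, per the labels and file headers. The authors deposited spot intensity values on a linear scale, read with Agilent Feature Extraction 10.7.3.1 per the submitters' processing notes. The deposited value table was linear, not centred, and matched these signals for 100% of probes (tolerance 0.01 in log2), with column medians of 38.3, 32.5, 31.9, 37.7 and 23.9 in the order of the arrays. Processed signals of 59305 spots outside the controls were taken to log2 and the array's 75th percentile subtracted. Spots marked as outliers (111 to 146 per array) were left out and no spot was saturated. Spots of a probe were averaged, and a share of 0.5 or more of spots flagged well above background put a probe above it. Probe accessions were matched to RefSeq genes of GRCm38.p6, which named 26413 of 55681 probes. Repeat spots of 255 to 267 probes gave a median SD of a difference of 0.088 to 0.091.

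Groups followed the sample titles, and with 1 array per group there are no tests, and the number of arrays limits the precision. Members, gene lists and motifs were chosen with earlier results of these data known. Up to 3 counted genes per list and direction were named with values by rule, with the 5 genes nearest in pattern. Akt1, Akt2, Sesn2, Mtor, Tsc1, Tsc2, Akt1s1, Nprl2, Nprl3, Depdc5, Arrdc1, Txn1, Mlxip, Mlxipl, Mlx and Slc2a1 at 48 h were added after their values were seen. Some list genes are not reported here by name. Alternatives were the other control array, array medians, quantile normalisation, normexp background correction (limma 3.58.1 in R 4.3.3, offset 50, on median rather than mean spot signals, because the files used here hold no mean), no filter on dim probes, the mean of probes, the deposited table and a 1.5-fold limit. Scripts ran in Python 3.11.15 with numpy 2.4.6 and pandas 2.3.3, and were tested on simulated data.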

Additional observations from a re-analysis of the deposited data

Results flagged for a closer look

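Sesn3 lay on opposite sides of its controls at the 2 times. High dose minus control was 0.36 ± 0.20 on the log2 scale at 3 h and -1.53 ± 0.20 at 48 h. The 3 h value was beyond 1 scanner error but not beyond 2, and the 48 h value was beyond 2. With 1 array per group the difference between the times was not tested. Against the other control array the 3 h value was -0.04 and the 48 h value -1.13, so the 3 h side rested on the 3 h control array, which at 2.55 was the lowest of the first 4.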

How the results depend on the processing

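Of 330 values of the members under 7 alternatives, 307 moved by less than the scanner error, 23 moved by more and 0 of the values past 2-fold changed sign. Part of the 307 was fixed in advance. Dropping the filter could move no member, since all their probes were above background, and the deposited table holds the same signals. Array medians moved every gene of a comparison by the same amount. These 3 alternatives gave 50 unmoved values each, so the total says little about stability. The other control array accounted for 17 of the 23, and only 13 of its values were not moved. Against it Ddit4l at 3 h of high dose was -0.82, no longer 2-fold. At 48 h, quantile normalisation took Irs2 to 0.93, under 2-fold, and Ddit4 past it. With normexp, Txnip was -3.87, Ddit4l -2.63 and Foxo3 0.17, above 0 where it had been below. With the mean of probes, Txnip was -3.69 and Arrdc4 -1.31, past 2-fold. At a 1.5-fold limit 5 members were counted for high dose against control at 3 h, 5 for high against low dose and 1 between controls, in place of 3, 0 and 0.

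Counts over all genes, in the order high dose and low dose at 3 h, high against low dose, high dose at 48 h and controls, moved as follows. They were 1549, 820, 990, 5514 and 1564 at a 1.5-fold limit, and 1361, 817, 1230, 4470 and 1361 with no filter on dim probes, in place of 463, 189, 310, 2748 and 542. Under normexp they were 216, 96, 126 and, between controls, 287, leaving out high dose at 48 h, which moved by less than 1.5 times. Against the other control they were 722 and 768 for the high and low dose at 3 h. Array medians changed the all-gene difference by -0.12 at 3 h of high dose and by -0.13 between controls.

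For the FOXO list at 48 h the lower genes ran from 8 of 23 with normexp to 13 of 23 at 1.5-fold. With no filter they were 13 of 30, and 0 or 1 was higher throughout. Over all genes 963 of 13732 were lower with normexp, 2663 of 13739 at 1.5-fold and 2269 of 20016 with no filter. The list median ran from -1.03 with quantile normalisation to -0.63 with normexp. The other lists had 19 or 20 genes measured. Their lower counts ran from 3 to 6 for PI3K and AKT, 2 to 5 for mTORC1 and 0 to 2 for alpha-arrestins. These list alternatives were chosen after seeing the data. No paired analysis was possible because each group has 1 array. Near the dim limit, where Foxo3 lies, the scanner error reached 0.36. The cause of these shifts was not tested.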

Other observations

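Between the 2 control arrays, 48 h minus 3 h, 2 of the 18 alpha-arrestin, thioredoxin and glucose-sensing genes measured were higher by 2-fold, beside 2.5% of all genes, and the list median was 0.05 beside 0.01 over all genes. In the PI3K and AKT list 1 of 19 was higher. These were Txnrd1, the cytosolic thioredoxin reductase, at 1.62 ± 0.20, Slc2a1, the main basal glucose transporter, at 1.43 ± 0.20 and Trib3, a stress-induced pseudokinase that binds AKT, at 1.21 ± 0.20. All 3 were also lower on the 3 h high dose array than on the 48 h control, at -1.48, -1.36 and -1.77, and within 2-fold of control at 3 h and at 48 h. For 48 h of high dose against the 3 h control, Txnrd1 and Trib3 passed 2-fold, at 1.49 and 1.58, and Slc2a1 did not, at 0.89.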
